A study of Mus musculus with 7 samples.

Results

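Of 640 mature miRNAs counted on Ago2 in mouse plasma, 6 come from the hairpins of miR-486, miR-144 and miR-451a and are described here. They were found by name, as any arm of miR-486a, miR-486b, miR-144 or miR-451a: miR-486b-5p, miR-486b-3p, miR-486a-5p, miR-144-3p, miR-144-5p and miR-451a. Small RNA was sequenced after immunoprecipitation of Ago2, the Argonaute protein that carries mature miRNAs, from plasma of adult male C57BL/6JOlaHsd mice (c57 in the labels). SE libraries came from mice given kainic acid (KA) into the amygdala, which triggers status epilepticus (SE, a prolonged seizure) and was followed by midazolam or lorazepam, and control libraries from mice given PBS. Control libraries were of 4, 8 and 24 h and SE libraries of 4, 8 and 24 h and 2 weeks. The 2-week control yielded no library of sufficient quality, so the study compared SE 2 weeks with control 24 h. Each of the 7 libraries was made from pooled plasma of 10 mice, so there was 1 library per condition and no difference between SE and control at a time point has a replicate check. Only plasma that passed an absorbance limit for haemolysis, the lysis of red blood cells during sampling, had entered the pools.

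MiR-486, miR-144 and miR-451a are best known from red blood cells and their precursors. Mir144 and Mir451a are transcribed together as a single primary transcript under the erythroid factor GATA1, and miR-486 is made from an intron of Ank1, the gene of the red cell membrane protein ankyrin-1. In the making of miR-451a Ago2 itself cuts the hairpin, in place of Dicer, and Ago2 also removes the passenger strand of miR-486. Because red blood cells hold so much of these miRNAs, their plasma level is widely read as a sign of haemolysis, with miR-23a-3p as a reference that haemolysis affects little.

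On GRCm38 (GENCODE annotation), Mir486 lies at chr8:23142555-23142682 on the plus strand, in an intron of Ank1, and on the minus strand it overlaps the hairpin Mir3107 and an intron of Gm15816. Mir144 lies at chr11:78073005-78073070 and Mir451a at chr11:78073170-78073241, both on the plus strand with 99 bases between them, and Mir451b is annotated on the minus strand over Mir451a. The miR-486a-5p and miR-486b-5p names stand for the same mature sequence, so reads of the pair cannot be told apart and their split between rows is uncertain. The hairpin and strand from which these reads came are therefore not known from the counts. Mature sequences of 3 of the 6 members matched RefSeq by name (GRCm38.p6), and they are shown because the results below turn on both arms of miR-144 and on the miR-451a that shares its cluster. Capitals mark the seed, bases 2 to 8, the stretch that pairs with target messages.
miR-144-3p: uACAGUAUagaugauguacu
miR-144-5p: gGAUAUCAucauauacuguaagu
miR-451a: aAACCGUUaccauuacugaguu
The 3 seeds differ from each other, and no other mature sequence of the 1738 in the table has any of them at bases 2 to 8, while miR-101a-3p shares bases 2 to 7 with miR-144-3p. In the Mir144 hairpin the 3p arm is printed in capitals first and the 5p arm second, since the libraries held both arms and their balance is described below. The arms are 20 and 23 bases long, with 14 bases between them.
Mir144, 3p arm: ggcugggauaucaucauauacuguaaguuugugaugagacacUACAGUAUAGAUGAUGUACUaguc
Mir144, 5p arm: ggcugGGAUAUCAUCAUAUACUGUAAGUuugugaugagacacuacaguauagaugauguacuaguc

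Depth differed between the libraries, and 1 of them stood apart. Total counts were 2043220 for control 4 h, the lowest, and 5405357 for SE 4 h, the highest. Control 4 h held a count for 232 miRNAs and the other 6 libraries for 314 to 399. SE 2 weeks, with the next lowest total of 2541062, held a count for 340. Low counts gathered around a typical value, 102 counts in control 4 h and 33.1 to 60.2 in the others (the typical low count below). In control 4 h 42 miRNAs had 1 to 6 counts, and in the others 23 to 39 did. Values below are counts, shares of all counts with 95% Wilson intervals, or CPM, which are counts relative to library size, scaled by TMM, edgeR's trimmed mean of M-values, which sets library sizes so that most miRNAs do not differ. PCR copies are not independent molecules, so intervals and limits from counts cover counting error only.

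MiR-486b-5p, the guide strand of miR-486, was the most abundant miRNA in every library. Controls at 4, 8 and 24 h gave it 76.1%, 67.5% and 67.0% of all counts. SE libraries at 4, 8 and 24 h and 2 weeks gave it 67.5%, 62.5%, 76.1% and 63.2%. The highest control share and the highest SE share were alike, and the remaining 5 libraries lay between 62.5% and 67.5%. Its mean share was 70.2% ± 5.10 (SD, n = 3 time points) in controls and 67.4% ± 6.22 (SD, n = 4 time points) in SE, so the groups overlapped. The interval of its share was narrow everywhere, from 76.0% to 76.1% in control 4 h and from 62.5% to 62.6% in SE 8 h, because each total is so large. The share of 1 dominant miRNA falls whenever other miRNAs rise, and fewer source cells and less miRNA released per cell cannot be told apart in plasma.

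**Figure D1:**
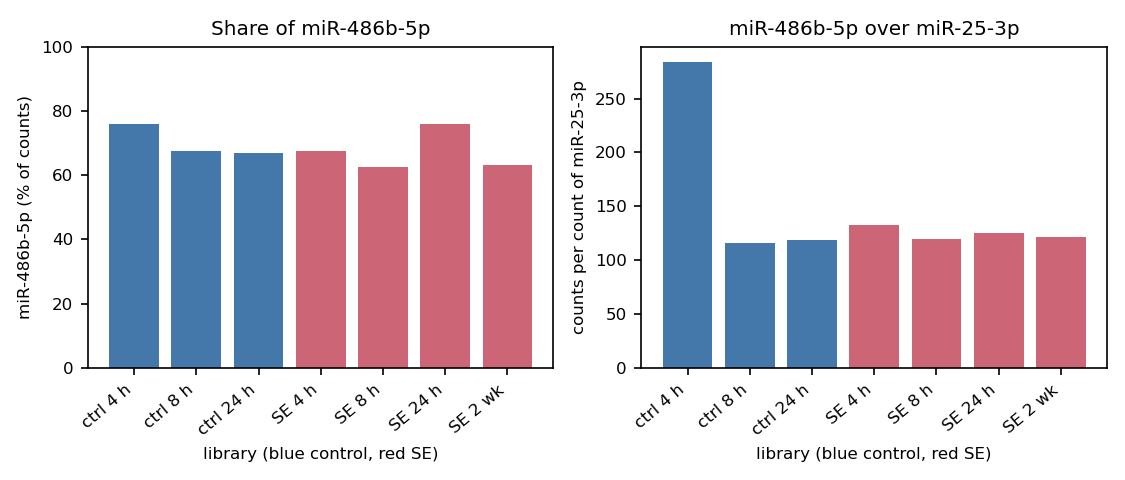
Left, share of all counts taken by miR-486b-5p (percent) in each of the 7 libraries. Right, counts of miR-486b-5p per count of miR-25-3p, with control libraries in blue and SE libraries in red. The share was 76.1% in control 4 h and in SE 24 h, while the ratio was 284 in control 4 h and 115 to 132 in the other 6 libraries.

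Set against all other miRNAs together, miR-486b-5p had 3.18, 2.08 and 2.03 counts for each non-member count in the controls of 4, 8 and 24 h. The SE libraries of 4, 8 and 24 h and 2 weeks had 2.08, 1.67, 3.19 and 1.72. The ratio spanned 1.91-fold over the SE libraries, which is also its span over all 7, and 1.56-fold over the controls. On the TMM scale its level was 891856, 552303 and 579385 CPM in control 4, 8 and 24 h, and 857232, 543903, 1008834 and 520595 CPM in SE 4, 8 and 24 h and 2 weeks. The level in SE 24 h passes the library total because TMM scales that library's size down, by a factor of 0.754.

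The other arm, miR-486b-3p, was rare. It had 103, 140 and 159 counts in control 4, 8 and 24 h, and 188, 156, 92 and 52 in SE 4, 8 and 24 h and 2 weeks. On the TMM scale these were 59.1, 32.5 and 40.3 CPM in controls and 44.2, 42.8, 32.8 and 16.8 CPM in SE, with control 4 h highest and SE 2 weeks lowest. These were small multiples of the typical low count of their library, with 1.01 the lowest (control 4 h) and 5 the highest (SE 4 h). For each 3p count there were 15088, 17012 and 14380 counts of the 5p arm in the controls, a span of 1.18-fold. The SE libraries, in the order of time, had 19415, 12698, 30751 and 30907. SE 4 h, SE 24 h and SE 2 weeks thus lay above every control and SE 8 h below every control, where the 3p arm stood on 52 to 188 counts. Reads in the 5p row may also belong to miR-486a-5p, so this ratio compares 5p and 3p rows and may not be that of a single hairpin. MiR-486a-5p had 1 count, in SE 24 h, and 0 in the other 6 libraries. It has the same mature sequence as miR-486b-5p, so these counts reflect how reads were assigned to names. They set no upper limit on miR-486a-5p.

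Both arms of miR-144 were present at middle levels in 6 libraries and almost absent from control 4 h. MiR-144-3p, the arm usually taken as the guide strand, had 0, 667 and 1634 counts in the controls of 4, 8 and 24 h. The SE libraries of 4, 8 and 24 h and 2 weeks held 1407, 774, 930 and 599 counts. On the TMM scale these were 0, 155 and 414 CPM in control 4, 8 and 24 h and 330, 213, 332 and 194 CPM in SE 4, 8 and 24 h and 2 weeks. The lowest and the highest level were both in controls, and all 4 SE libraries lay between control 8 h and control 24 h. As a share of all counts miR-144-3p was 0.0260%, 0.0244%, 0.0250% and 0.0236% in the 4 SE libraries, a mean of 0.0248% ± 0.00103 (SD, n = 4 time points), against 0, 0.0189% and 0.0479% in the controls.

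MiR-144-5p had 1 count in control 4 h, against 850 and 731 in the controls of 8 h and 24 h. It had 779, 450, 906 and 460 counts in SE 4, 8 and 24 h and 2 weeks. Its TMM-scaled levels were 0.574, 197 and 185 CPM in controls and 183, 124, 323 and 149 CPM in SE. SE 24 h was highest, and SE 4 h, SE 8 h and SE 2 weeks lay under both later controls, SE 4 h by the least. Outside control 4 h the 3p arm ranked between 58 and 97 among all miRNAs and the 5p arm between 72 and 108.

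**Figure D2:**
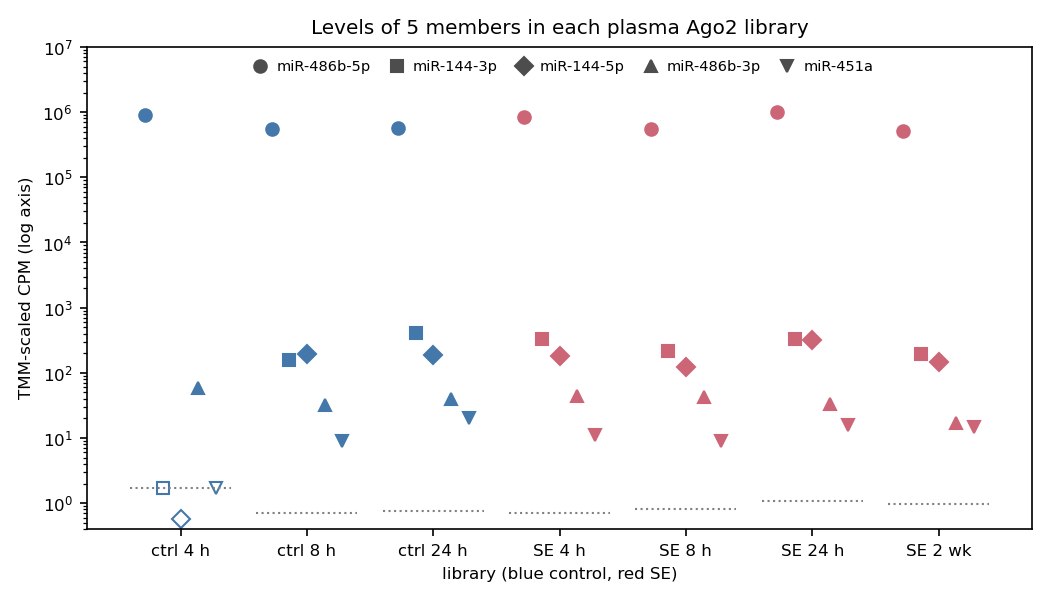
TMM-scaled level (CPM, log axis) of 5 members in each library, controls in blue and SE in red. The dotted line is the level of 3 counts in that library, and open symbols have 3 counts or fewer, with miR-144-3p, at 0 counts, drawn on the line; miR-144 and miR-451a sit at or under it in control 4 h alone.

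The balance of the miR-144 arms moved between libraries. In the 6 libraries where both arms had counts, there were 0.785 counts of the 3p arm per 5p count in control 8 h and 2.24 in control 24 h. Those in SE were 1.81, 1.72, 1.03 and 1.30 in the order of time. Both controls lay outside the range of the SE libraries, on opposite sides of it, and the span over all 6 was 2.85-fold. This ratio compares arms of 1 hairpin within a library and does not depend on how libraries are scaled. The arms moved together across all 7 libraries (Pearson r = 0.98 on log2 of CPM plus 1, n = 7), but r was 0.40 over the 6 libraries other than control 4 h, so the close relation rested on that library.

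MiR-451a, one of the most abundant miRNAs of red blood cells, was nearly absent from these counts. It had 3, 39 and 81 counts in control 4, 8 and 24 h and 47, 33, 45 and 46 counts in SE 4, 8 and 24 h and 2 weeks. On the TMM scale these were 1.72, 9.04 and 20.5 CPM in controls and 11.0, 9.06, 16.0 and 14.9 CPM in SE, with both extremes in controls. Outside control 4 h its counts were 0.636 to 1.47 times the typical low count of the library. It stayed under 50 CPM in every library and was not tested. There were 28226 to 77659 counts of miR-486b-5p and 13.0 to 29.9 counts of miR-144-3p for each count of miR-451a in these 6 libraries. Members known from the same cells thus differed widely in level on plasma Ago2. Reads were matched to mature miRBase sequences after selection by size, and the part of that step in the low count of miR-451a was not tested.

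The study set each SE library against the control of its own time point, and SE 2 weeks against control 24 h. For each pair, edgeR's exact test was run at a preset biological coefficient of variation (BCV) of 0.1, since 1 library per condition gives no estimate of spread. A miRNA entered the test if it reached 50 TMM-scaled CPM in 1 library of the pair, and was called when its unadjusted p was under 0.05 and it changed by at least 1.5-fold. Such a call compares 2 libraries and not 2 conditions, and the share of all miRNAs called is therefore given beside each count of members. These shares come from the tests run here, and the study reported fewer differing miRNAs at each time point.

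At 4 h, 4 of the 6 members could be tested and 2 were called, where 67.2% of 189 miRNAs were called. Both called members were arms of miR-144. MiR-144-3p was at least 192-fold higher in SE 4 h, since it had 1407 counts against 0, which is set at 3 counts. MiR-144-5p was 319-fold higher, with 779 counts against 1 and a 95% counting interval of the ratio from 57.1 to 12608. MiR-486b-5p differed by a log2 fold change of -0.06 and miR-486b-3p by -0.42, and neither was called. MiR-451a, with 47 against 3 counts, was not tested, and its ratio of 6.41 had an interval from 2.06 to 32.2.

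The miR-144 difference at 4 h depended on the control library. Against control 8 h, SE 4 h had 2.14-fold more miR-144-3p and a log2 fold change of -0.11 in miR-144-5p, with 2 of 3 tested members called (miR-144-3p and miR-486b-5p, the latter 1.55-fold higher) where 54.6% of miRNAs were called. Against control 24 h the log2 fold changes were -0.33 for miR-144-3p, -0.02 for miR-144-5p and 0.57 for miR-486b-5p, and 0 of 3 tested members were called where 58.4% of miRNAs were. The controls also differed from each other. Control 8 h differed from control 4 h in all 4 tested members, where 59.3% of miRNAs were called: miR-144-3p was at least 89.8-fold and miR-144-5p 343-fold higher (interval 61.5 to 13582), and miR-486b-5p 1.61-fold and miR-486b-3p 1.82-fold lower. Control 24 h differed from control 4 h in 3 of 4, where 69.6% were called, with miR-144-3p at least 241-fold and miR-144-5p 323-fold higher (interval 57.8 to 12767) and miR-486b-5p 1.54-fold lower. Between control 24 h and control 8 h, 1 of 3 was called where 45.4% of miRNAs were: miR-144-3p was 2.68-fold higher at 24 h, more than any difference of a member between an SE library and its own control at 8 h, 24 h or 2 weeks.

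**Figure D3:**
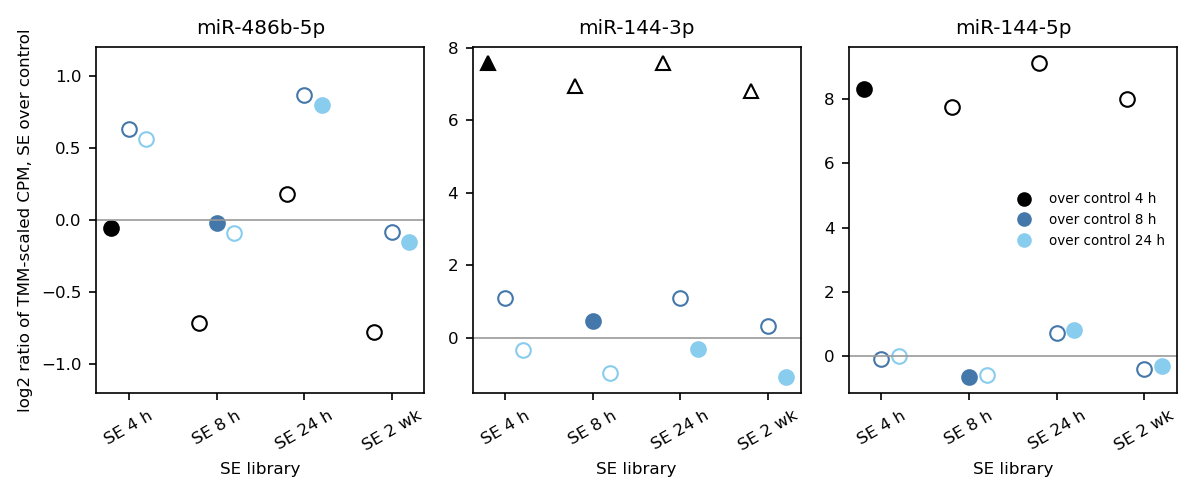
Log2 ratio of TMM-scaled CPM of each SE library over each control library, for miR-486b-5p, miR-144-3p and miR-144-5p, with vertical axes that differ between panels. Filled symbols are the control the study used, triangles are lower bounds against a library with 0 counts, and the ratios of miR-144 over control 4 h stand far above 0 for every SE library while those of miR-144-3p over the later controls lie between -1.09 and 1.10.

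Measured against the other 6 libraries, the near absence of miR-144 in control 4 h had no match in any other library at thresholds of 50 or 100 CPM. Of 92 miRNAs with at least 100 CPM of the plain total in all 6 others, 2 had 3 counts or fewer in control 4 h, and they were miR-144-3p and miR-144-5p. The same question asked of each other library gave 0 of 80 to 84 miRNAs. Those sets had to reach the threshold in control 4 h as well, which left miR-144 out, so they are not the same miRNAs as the 92. With 50 CPM as the threshold it was 3 of 107 in control 4 h, miR-215-3p being the other, and 0 in each other library. With 200 CPM neither arm of miR-144 reached the threshold and the number was 0 of 66. These thresholds and the miRNAs named with them were chosen after the values were seen. Relative to its median in the other libraries, miR-144-3p had a log2 ratio of -7.30 or lower in control 4 h, and miR-144-5p one of -6.74 when set at 3 counts. The next miRNAs, miR-1839-5p and miR-98-5p, had -3.55 and -2.03.

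At the levels of the other 6 libraries, control 4 h would have held 270 to 722 counts of miR-144-3p and 215 to 563 of miR-144-5p. These are 2.64 to 7.05 and 2.11 to 5.50 times the typical low count of that library. Counted in that unit, with 3 units as the limit for control 4 h, the bound on the 4 h difference was 1.94-fold for miR-144-3p and 1.10-fold for miR-144-5p. Another 32 miRNAs with at least 100 CPM in all 6 libraries and a median of at most 400 CPM had 94 to 1400 counts in control 4 h, with a median of 408.5. They were taken from the 92 miRNAs above, of which only the arms of miR-144 had 3 counts or fewer. Their presence in control 4 h was thus known beforehand and is no separate check. The high typical low count and the near absence of miR-144 occur in the same library, and the part of the first in the second was not tested.

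**Figure D4:**
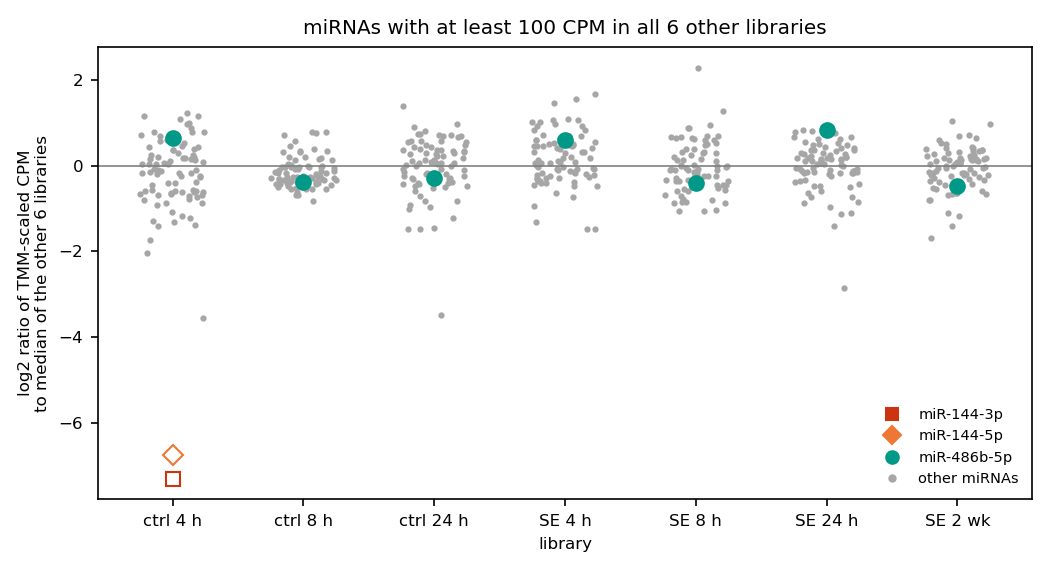
Log2 ratio of each miRNA's TMM-scaled CPM to its median in the other 6 libraries, for miRNAs with at least 100 CPM of the plain total in all 6 others (grey points). Open symbols mark miR-144-3p and miR-144-5p, set at 3 counts in control 4 h, at -7.30 and -6.74; they have no point in the other libraries because they do not reach 100 CPM in control 4 h, and miR-486b-5p is in green.

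At 8 h, 3 members were tested and 1 was called, where 50% of 154 miRNAs were called. MiR-144-5p was 1.60-fold lower in SE 8 h, with 450 against 850 counts. It was not called at a BCV of 0.2 or 0.4, in low-count units or against control 24 h (log2 fold change -0.58), and against control 4 h its log2 ratio was 7.75. MiR-144-3p, from the same hairpin, had a log2 fold change of 0.46 and miR-486b-5p of -0.02, and neither was called. The median of all miRNAs tested was 0.23.

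At 24 h, 3 members were tested and 2 were called, where 44.7% of 141 miRNAs were called. MiR-486b-5p was 1.74-fold higher in SE 24 h, at 76.1% against 67.0% of all counts, and miR-144-5p was also 1.74-fold higher, with 906 against 731 counts. MiR-144-3p had a log2 fold change of -0.32 and was not called, so the arms of miR-144 again lay on opposite sides of 0. By library size alone, with no TMM factor, miR-144-5p had a log2 fold change of 0.19 and miR-486b-5p of 0.18, and neither was called, while miR-144-3p, at -0.94, was called lower. Neither call at 24 h was made at a BCV of 0.2 or 0.4, miR-144-5p was not called in low-count units, and miR-486b-5p was not called against control 4 h (log2 fold change 0.18).

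At 2 weeks, against control 24 h, 3 members were tested and 1 was called, where 31.7% of 145 miRNAs were called. MiR-144-3p was 2.13-fold lower in SE 2 weeks, with 599 against 1634 counts, and was not called at a BCV of 0.4 or in low-count units. MiR-144-5p had a log2 fold change of -0.31 and miR-486b-5p of -0.15, and neither was called. The control here is the one with the most miR-144-3p of all 7 libraries, and against control 8 h the log2 fold change of miR-144-3p was 0.33.

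No member was called between the SE and the control libraries of 4, 8 and 24 h taken as 3 against 3. These are 3 time points a side and not replicates of a condition. EdgeR's quasi-likelihood test called 0% of 137 miRNAs at an adjusted p under 0.05 (Benjamini-Hochberg), with 17 at an unadjusted p under 0.05, and DESeq2 called 7, none of them a member. The log2 fold change of miR-486b-5p was 0.25 ± 0.34 (an approximate standard error derived from the test's F statistic, adjusted p = 0.892 by the same edgeR test). For miR-144-3p it was 0.62 ± 1.39 (adjusted p = 0.897) and for miR-144-5p 0.71 ± 1.26 (adjusted p = 0.892). Exact two-sided permutation tests gave p = 0.7 for miR-486b-5p, 0.4 for miR-144-3p, 0.6 for miR-144-5p, 0.9 for miR-486b-3p and 0.7 for miR-451a, where 0.1 is the smallest p that 3 against 3 can give. The groups overlapped for every member. Without control 4 h the log2 fold changes were 0.04 for miR-144-3p, 0.13 for miR-144-5p and 0.51 for miR-486b-5p, and the estimated BCV went from 0.587 to 0.424. With all 3 time points kept and SE paired with control by time point, they were 1.62, 1.63 and 0.24 in the same order.

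Other miRNAs abundant in red blood cells were listed with earlier results of these data known, as 10 names that are no members. At 4 h 6 of them were tested, 2 were higher in SE (miR-25-3p and miR-106b-5p) and 0 lower, with a median log2 fold change of 0.05 against -0.06 over all miRNAs tested. At 8 h 6 were tested and 1 was higher (miR-106b-5p), with a median of 0.06 against 0.23. At 24 h 7 were tested, 3 were higher (miR-25-3p, miR-106b-5p and miR-484) and 1 lower (miR-15b-5p), with a median of 0.04 against 0.04. At 2 weeks 7 were tested, 1 was higher (miR-106b-5p) and 1 lower (miR-93-5p), with a median of -0.19 against 0.01. The share of the tested list that was called was under that of all miRNAs at 4 h, 8 h and 2 weeks and above it at 24 h, where it was 4 of 7. The sum of the list was 16841 to 24573 CPM over the 7 libraries and 1.77% to 2.79% of all counts, and in control 4 h, where 5 of the 10 had a count, it was 23067 CPM.

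**Figure D5:**
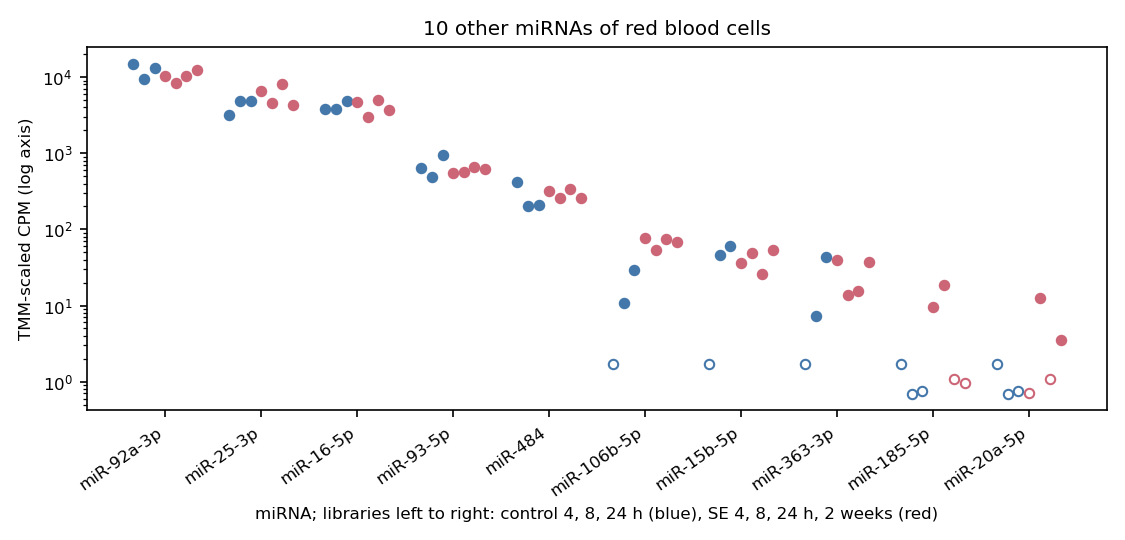
TMM-scaled level (CPM, log axis) of the 10 listed red cell miRNAs in the 7 libraries, controls in blue and SE in red. Open symbols are 0 counts, drawn at the level of 3 counts; the 5 least abundant miRNAs are at 0 in control 4 h, while miR-92a-3p, miR-25-3p and miR-16-5p are present throughout.

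The 2 most abundant of the list, miR-92a-3p and miR-25-3p, gave different ratios to miR-486b-5p. There were 59.1, 58.5 and 44.4 counts of miR-486b-5p per count of miR-92a-3p in control 4, 8 and 24 h, and 83.9, 65.4, 97.7 and 42.1 in SE 4, 8 and 24 h and 2 weeks. Per count of miR-25-3p there were 284, 115 and 119 in the controls and 132, 119, 125 and 121 in SE, in the same order. The ratio to miR-25-3p thus varied within 115 to 132 over 6 libraries in which the ratio to miR-92a-3p ranged from 42.1 to 97.7, and in control 4 h it was more than 2 times as high as in any other library. MiR-25-3p was named for this likeness after its values were seen.

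The ratio of miR-486b-5p to miR-23a-3p, the reference for haemolysis, was 2977, 3117 and 2333 in control 4, 8 and 24 h. The SE libraries of 4, 8 and 24 h and 2 weeks gave 2485, 1319, 4747 and 1943. SE 24 h lay above every control, and SE 8 h and SE 2 weeks lay below every control. MiR-23a-3p itself was called 2.33-fold higher in SE 8 h. In the 6 libraries with miR-144, there were 0.873 and 1.67 counts of miR-144-3p per count of miR-23a-3p in control 8 h and 24 h, and 0.515 to 1.56 in SE. For miR-451a, which had few counts, the ratio to miR-23a-3p was 0.0510 and 0.0827 in these controls and 0.0220 to 0.0755 in SE.

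The miRNAs listed here for other cells were present in the same plasma. Of 6 platelet miRNAs, all tested, 3 were higher in SE at 4 h (miR-126a-3p, miR-126a-5p and miR-24-3p), 1 at 8 h (miR-24-3p), 0 at 24 h, when miR-24-3p was lower, and 0 either way at 2 weeks. The 3 of 6 at 4 h and 1 of 6 at 8 h stand beside 67.2% and 50% of all miRNAs called, and against control 24 h the list had 0 higher and 1 lower (miR-191-5p) in SE 4 h. Their summed level was lowest in control 4 h, at 16870 CPM, and 19540 to 34006 CPM in the other libraries. Of 5 leukocyte miRNAs 4 were tested, and 2 were higher at 4 h (miR-142a-3p and miR-142a-5p), 0 at 8 h and 0 at 2 weeks, and 2 were lower at 24 h (miR-142a-3p and miR-146a-5p), beside 67.2% of all miRNAs called at 4 h and 44.7% at 24 h. Against control 24 h the list turned to 0 higher and 2 lower in SE 4 h (miR-142a-3p and miR-150-5p). Their summed level was also lowest in control 4 h, at 5478 CPM, and 6346 to 10768 CPM elsewhere. Of the liver pair, miR-192-5p was 1.72-fold higher in SE at 4 h and 1.67-fold higher at 8 h. It was not called at 24 h, at 2 weeks or in SE 4 h against control 24 h, and the paper lists it as ubiquitous. The paper also gives other sources for further names used here, such as heart and astrocytes for both arms of miR-126a. Of the members, it lists both arms of miR-144 under blood and miR-451a under astrocytes. MiR-122-5p, the main miRNA of liver, had 0 to 59 counts. The part of these cells in the levels of the members was not tested.

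The miRNAs whose levels moved most like the members were sought among 101 others with at least 50 CPM in all 7 libraries, by Pearson r of log2 CPM, as a description over libraries that share their scaling. For miR-486b-5p they were let-7e-5p (r = 0.86), miR-484 (0.83) and miR-5108 (0.69). For miR-144-3p they were miR-186-5p (0.93), miR-126a-3p (0.92) and miR-27a-3p (0.91), and for miR-144-5p miR-126a-3p (0.95), miR-98-5p (0.93) and miR-186-5p (0.90). Without control 4 h all the names changed but let-7e-5p and miR-5108, the latter now beside miR-144-5p. Over those 6 libraries miR-486b-5p was most like miR-25-3p (0.99), let-7e-5p (0.98) and miR-421-3p (0.86), miR-144-3p most like miR-126a-5p (0.90), miR-210-3p (0.88) and miR-16-5p (0.78), and miR-144-5p most like miR-5108 (0.88), miR-421-3p (0.86) and miR-340-5p (0.84). The r of miR-486b-5p with miR-144-3p was -0.33 over 7 libraries and 0.57 over 6, and with miR-144-5p -0.30 and 0.78, so its sign was set by control 4 h.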

How the data were processed

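Ago2-bound small RNA from 7 plasma pools was analysed, 1 library per condition. With the Chimera software, the authors removed adapters, kept reads of the right size and matched these to mouse miRBase by BLASTn, allowing 2 mismatches, and deposited raw counts of reads per mature miRNA. The version of Chimera and its handling of identical mature sequences are not given in the sources used here, and the deposited column for each library was matched to its labels by name.

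From these counts, CPM, shares with 95% Wilson intervals, ratios and correlations were computed in Python 3.11.15 (numpy 2.4.6, pandas 2.3.3, scipy 1.17.1), and plots were drawn with matplotlib 3.10.9. TMM factors over all 7 libraries (0.754 to 1.22), the exact test at a BCV of 0.1 with a prior count of 0.125, and the quasi-likelihood test over miRNAs that reached 50 CPM in 3 or more of 6 libraries were run in edgeR 4.0.16 (limma 3.58.1, R 4.3.3), and DESeq2 1.42.0 was an alternative. The tests were tested on simulated data. A fold against 0 counts was computed against 3 counts, and a ratio against 1 to 3 counts has an exact counting interval. The typical low count is the mode of a kernel density of log counts from 6 to 300 with a bandwidth of 0.15. Total counts of 2043220 to 5405357 set a limit of 0.696 to 1.72 CPM for 3 counts.

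Every member was named in every library. Of each list the 2 most abundant tested miRNAs and those called (up to 5) could be named, with miR-23a-3p and the 3 miRNAs most like each abundant member. The members and lists were chosen with earlier results of these data known. Alternatives were other scalings, BCVs of 0.2 and 0.4, other filters, a prior count of 2, the other controls and leaving out each library. The low-count unit for tests, the presence thresholds and the likeness without control 4 h were chosen after seeing the data.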

Additional observations from a re-analysis of the deposited data

Results flagged for a closer look

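Both arms of miR-144 were called in opposite directions at different time points. MiR-144-3p was higher in SE at 4 h, by a log2 fold change of at least 7.58, and lower in SE at 2 weeks, at -1.09. MiR-144-5p was higher in SE at 4 h, by a log2 ratio of 8.32, lower at 8 h, at -0.67, and higher again at 24 h, at 0.80. Each value compares 1 pooled library with another, and the difference between time points was not tested. Both values at 4 h rest on control 4 h, in which miR-144-3p had 0 counts and miR-144-5p had 1.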

How the results depend on the processing

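Over 164 values of members in the 4 comparisons of SE with control, 130 kept their direction and call, 14 lost the call, 4 gained one and 16 changed direction. Of these 16, 12 were among the 24 values set against another control. At 4 h, miR-144-3p was -0.33 against control 24 h, miR-144-5p -0.11 against control 8 h and -0.018 against control 24 h, and miR-486b-5p 0.63 and 0.57 (log2). At 8 h, miR-144-5p was 7.75 against control 4 h and miR-144-3p -0.96 against control 24 h. At 24 h, miR-144-3p was 7.59 against control 4 h (a lower bound) and 1.10 against control 8 h. At 2 weeks, miR-144-3p was 6.82 (a lower bound) and 0.33 and miR-144-5p 8.02 against control 4 h. Among the 52 of these values that came from another scaling, 48 kept direction and call, and miR-486b-5p at 4 h went to 0.016 with TMM factors computed without the members. In low-count units miR-486b-5p was 0.010 at 4 h and 0.15 at 2 weeks, and miR-144-5p 0.031 at 2 weeks. The number of members called went from 2 to 0 at 4 h with 50 CPM needed in both libraries, which removes miR-144, and to 0 against control 24 h. At 8 h it went from 1 to 0 at a BCV of 0.2, at a BCV of 0.4 and in low-count units, and to 3 against control 4 h. At 24 h it went from 2 to 1 by library size only and in low-count units, and to 0 at a BCV of 0.2 or 0.4. At 2 weeks it went from 1 to 0 at a BCV of 0.4, against control 8 h and in low-count units, to 2 with any count as the filter and to 4 against control 4 h. For SE 4 h against control 24 h the share of all miRNAs called is given above. That share is not given for the other settings, so these numbers show only how the calls depend on the setting. The cause was not tested. With 3 libraries a side, 0 members were called under every setting, each library left out in turn included, and the only change of direction among 39 values was miR-486b-5p, at -0.030 by library size only. The labels give no replicate numbers, and pairing SE with control by time point, as a block, called 0 members. The limits are 1 library per condition, pooled mice and control 4 h. That library had the lowest total, the highest typical low count and almost no miR-144 at once.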
